A study of Mus musculus with 6 samples.

Results

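The mitochondrial ribosomal protein genes, here all genes whose symbol begins with Mrpl or Mrps and a digit, were compared between Atp7b knockout and wild-type mouse liver. Membership was decided by the symbol alone: 109 of 11811 probe sets carried such a symbol and no other, 74 of them for 47 large subunit genes (Mrpl) and 35 for 27 small subunit genes (Mrps). RefSeq lists 78 protein-coding genes with such a symbol, of which Mrpl30, Mrpl53, Mrps10 and Mrps27 were not analysed here. Total RNA from whole liver was hybridised to Affymetrix arrays, 1 array per sample. The knockout samples KO903, KO904 and KO905 came from mice lacking Atp7b, the copper-exporting ATPase that is lost in Wilson disease, and the samples WT4, WT5 and WT6 from wild-type mice. The series title places the knockout livers early in copper accumulation, and the labels give no treatment, strain, sex, age or diet for either group. The labels cite an earlier publication for the knockout line and do not describe its allele. The label of WT6 speaks of mice in the plural, and whether samples are separate animals is unstated, so p-values here reflect only how these 6 samples spread, which may be technical.

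Mitochondria translate a handful of messages from their own genome, all of them for subunits of the oxidative phosphorylation complexes. They do so on a ribosome of their own, whose ribosomal RNAs are made inside the organelle while its proteins are encoded in the nucleus, made in the cytosol and imported. The small subunit binds the message and decodes it, and the large subunit joins the amino acids and holds the exit tunnel. Some of these proteins descend from bacterial ribosomes and others are found only in mitochondria. Hepatocytes are rich in mitochondria, and copper overload is known to damage these organelles in Wilson disease.

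Values are MAS 5.0 signals on a linear scale, and differences are knockout minus wild type on log2(signal + 16), a scale that understates changes of low signals. Array medians lay between 330.8 and 342.8. The ratio of 3' to 5' actin signal was 1.17 to 1.22 in the knockout and 1.10 (WT5) to 1.47 (WT6) in wild type. Atp7b averaged 219 ± 29.9 in knockout livers, against 267 ± 30.1 in wild-type livers (SD, n = 3 per group; limma adjusted p = 0.407), and where its probe set lies relative to the disrupted stretch was not examined. Mt2, a metallothionein gene, rose 2.86-fold (limma adjusted p = 0.000341). All 6 hepatocyte markers were measured, with summed signals of 109600 to 124618 in the knockout and 113641 to 138751 in wild type. Summed signals of the 5 tested of 6 Kupffer cell markers were 4538 to 6213 in the knockout and 3332 to 4684 in wild type. Those of the 4 tested of 5 endothelial markers were 2116 to 2510 in the knockout and 1736 to 2052 in wild type, without overlap. Limma called none of these 15 markers, against 3.94% of all tested genes. At an unadjusted p under 0.05 stood 5 of them, 4 higher and 1 lower, against 18% of all tested genes. The lower one was Tat of the hepatocyte list, at a log2 difference of -0.42 (limma adjusted p = 0.0803), without overlap of the groups. All 5 tested Kupffer cell and all 4 tested endothelial markers lay above 0. So did 3 of the 6 hepatocyte markers and 56.4% of all tested genes. Of the erythroid markers 1 of 3 was tested: Alas2, the heme synthesis enzyme of red cell precursors, rose to 814 in the knockout, against 398 in wild type (limma adjusted p = 0.00183). Of the other lists, 2 of 5 stellate, 1 of 5 lymphocyte, 1 of 4 neutrophil and 0 of 5 cholangiocyte markers were tested, and none was called. In whole liver, fewer cells of a type and less RNA per cell cannot be told apart, and the part of these cell types in the values below was not tested.

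No mitochondrial ribosomal protein transcript passed the test in the Atp7b knockout livers. Of the 109 probe sets 107 had a mean signal of at least 100 and were tested, covering all 74 genes, and limma called 0 of them higher and 0 lower at an adjusted p of 0.05 (14 at an unadjusted p under 0.05). Over all 10620 tested probe sets 4.14% were called, 2.05% higher and 2.09% lower. At an adjusted p of 0.10 limma called 2 members, Mrps36 and Mrpl57, against 7.4% of all tested probe sets. The nearest to the threshold was Mrps36, with a log2 difference of 0.64 ± 0.16 (SE; limma adjusted p = 0.0539), a gene whose product has since been assigned to the oxoglutarate dehydrogenase complex rather than to the ribosome. The nearest ribosomal gene was Mrpl57 (limma adjusted p = 0.0989).

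Differences of most members were small, as were those of most tested genes. Of all 6604 tested genes 2.5% had a log2 difference at or below -0.55 and 97.5% had one at or below 0.59. Log2 differences of the 107 probe sets ran from -0.44 to 0.65, and 105 of them were smaller than 1.5-fold on this scale, the exceptions being Mrps36 and 1 of 5 probe sets of Mrpl15. As plain ratios of mean signals, without the 16 added, 1 probe set of Mrpl48 (669 in the knockout, 431 in wild type) and Mrps11 (361 and 239) passed 1.5-fold as well. The 95% intervals of limma had a median half-width of 0.31 on the log2 scale (0.23 to 0.75). The whole interval lay within 2-fold in either direction on the same scale for 105 of 107 probe sets, against 94.8% of all tested ones. It lay within 1.5-fold for 80, and that share over all tested ones was not computed. Like the p-values, the intervals reflect only how these 6 samples spread. The 2 whose interval reached past 2-fold belonged to Mrpl48 and Mrpl15.

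**Figure D1:**
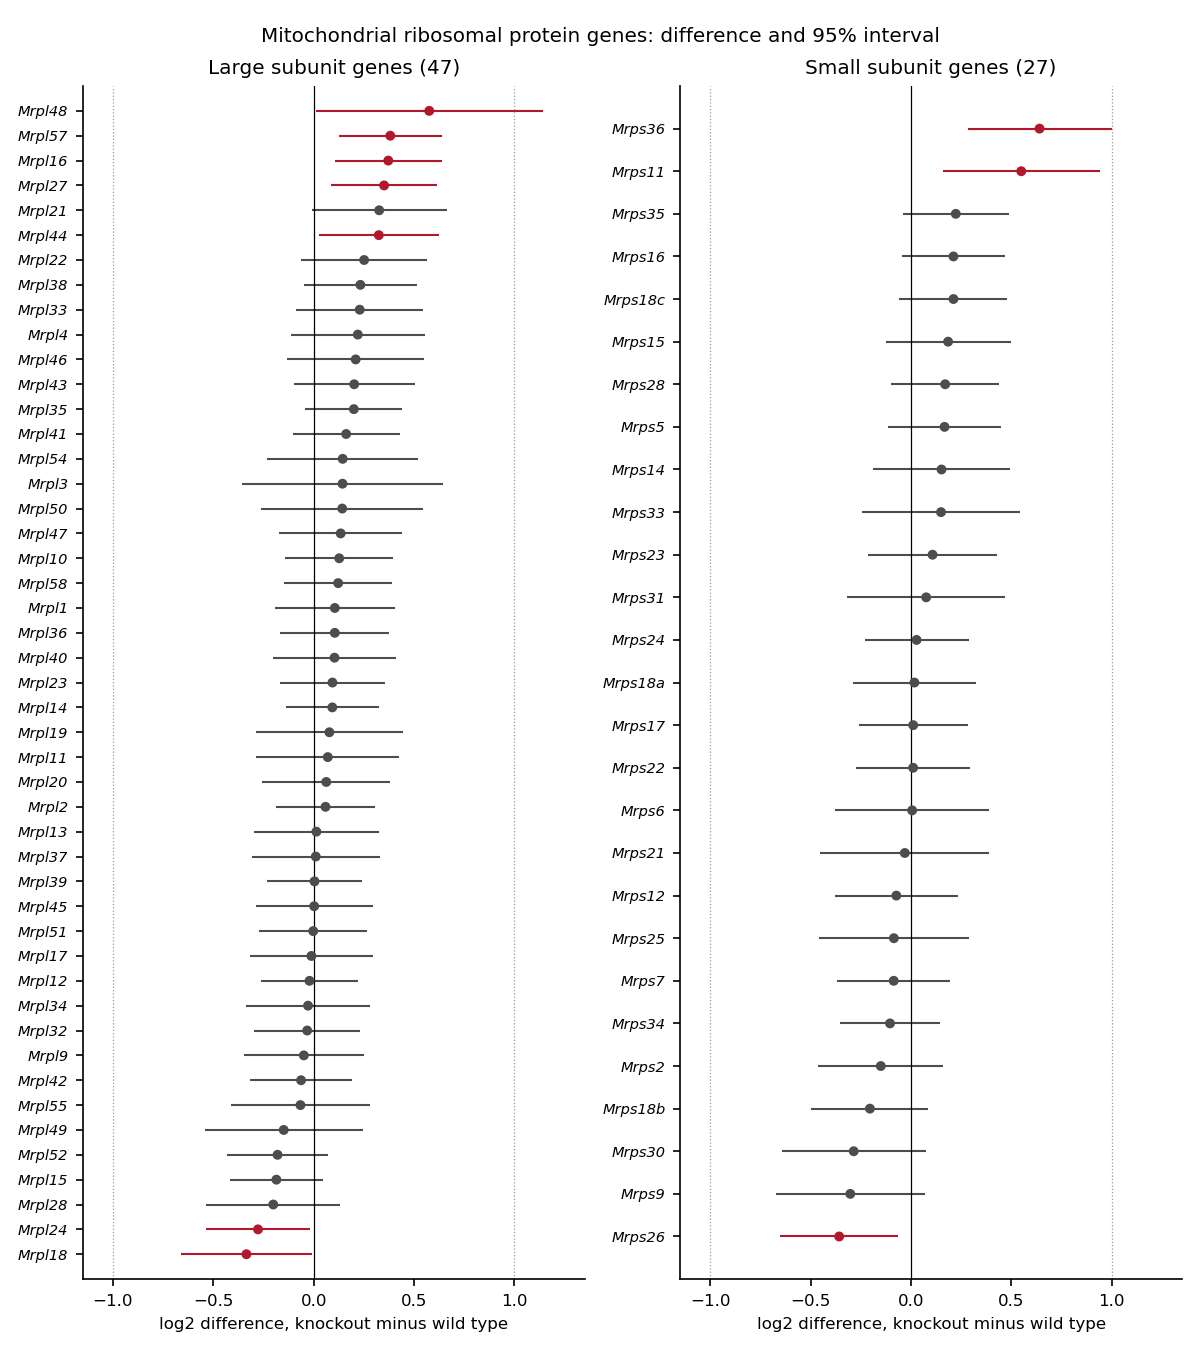
Log2 difference (knockout minus wild type) of each mitochondrial ribosomal protein gene, read from its brightest probe set, with the 95% interval of limma, for 47 large subunit genes (left) and 27 small subunit genes (right). Genes in red have an unadjusted p under 0.05, none passes the adjusted threshold, and the dotted lines mark 2-fold. The values run from -0.36 for Mrps26 to 0.64 for Mrps36, and the interval of Mrpl48 crosses a dotted line.

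The members' shares were set beside those of the whole array. At an unadjusted p under 0.05 stood 10 of 72 large subunit probe sets (13.9%) and 4 of 35 small subunit probe sets (11.4%), against 17.9% of all tested ones, with 7 members higher and 7 lower, against 9.69% and 8.2% of all tested ones. Differences above 0 were found for 68 of the 107 members, against 54.6% overall. The 3 knockout values lay wholly above the wild-type values in 15 of the 107 probe sets and wholly below them in 9. Over all tested probe sets these shares were 13.2% and 10.4%, and 24 of 107 members (22.4%) stood apart in either direction against 23.6% overall.

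With 1 probe set per gene, the brightest, the median log2 difference was 0.09 over the 47 large subunit genes and 0.02 over the 27 small subunit genes, beside 0.03 over all 6604 tested genes. The quartiles were -0.016 and 0.20 for the large subunit genes, -0.09 and 0.17 for the small subunit genes, and -0.12 and 0.18 for all tested genes. Differences above 0 were found for 33 of 47 large subunit genes (70.2%), 17 of 27 small subunit genes (63.0%) and 56.4% of all tested genes. The large subunit median was above 0 under both other scalings of the arrays, whereas that of the small subunit was -0.010 once each array was centred on its median, where the median over all genes was 0.01. The difference between the subunits was not tested.

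**Figure D2:**
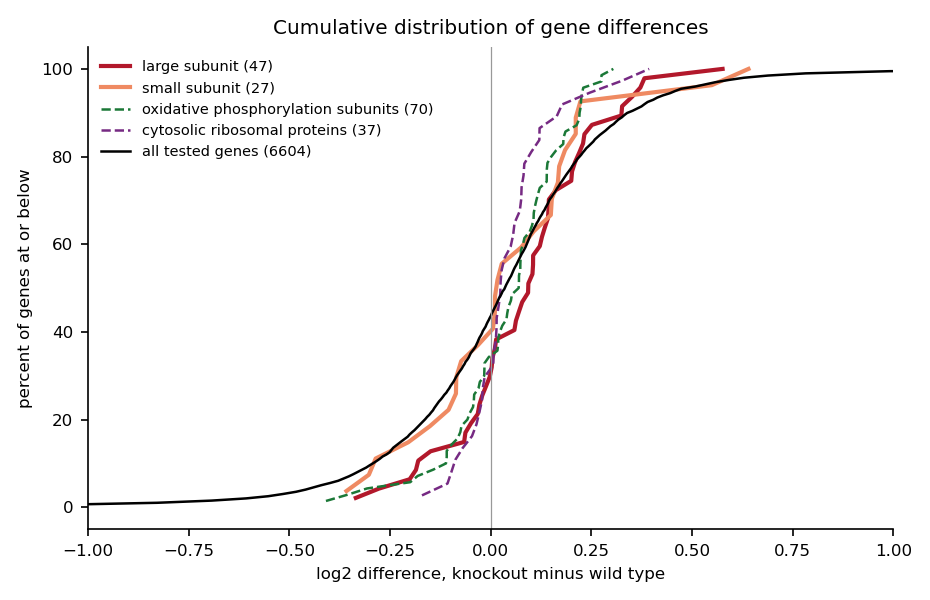
Cumulative percent of genes (vertical axis) at or below a log2 difference between knockout and wild type (horizontal axis), with lines joining the values of the genes of each list and the number of genes in brackets. The axis ends at 1 in either direction, which leaves out the tails of the line for all tested genes. The medians are 0.09 for the large subunit, 0.02 for the small subunit and 0.03 for all tested genes.

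Members were also grouped by the name of their protein family, which does not settle descent. Of the 25 members of families shared by all ribosomes 18 lay above 0, with a median log2 difference of 0.09. Of the 19 of families shared with bacteria 11 lay above 0 (median 0.06). Of the 29 named as particular to mitochondrial ribosomes 20 did (median 0.08). None of these 73 genes was called by limma, against 3.94% of all 6604 tested genes, and 9 stood at an unadjusted p under 0.05, against 18% of all tested genes.

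No large subunit gene passed the test, and the 6 nearest to it on their brightest probe sets are given with all 6 values. Mrpl16, the uL16 protein beside the site where amino acids are joined, gave 1907, 1852 and 1803 in KO903, KO904 and KO905, against 1469, 1228 and 1617 in WT4, WT5 and WT6. The groups did not overlap, and the log2 difference was 0.37 ± 0.12 (SE; limma adjusted p = 0.124). Mrpl27, whose bacterial relative bL27 reaches into that site, gave 1801, 1694 and 1705 in the knockout and 1162, 1455 and 1472 in wild type. WT4 was the lowest array here, and the log2 difference was 0.35 ± 0.12 (SE; limma adjusted p = 0.144). Mrpl13, a uL13 protein and with these 2 among the 3 large subunit genes of highest signal, had overlapping groups, with 2022, 2026 and 1421 in the knockout and 1703, 1837 and 1808 in wild type.

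Mrpl57, a small protein known only from mitochondrial ribosomes (mL63), gave 964, 1053 and 949 in the knockout and 755, 700 and 811 in wild type. Every knockout value exceeded every wild-type value, by a log2 difference of 0.38 ± 0.12 (SE). Its dimmer probe set averaged 140 ± 24.4 in knockout livers, against 113 ± 21.8 in wild-type livers (SD, n = 3 per group), in the same direction but with overlapping groups. Mrpl44, a protein with a fold related to ribonuclease III, gave 948, 934 and 891 in the knockout and 711, 635 and 878 in wild type, WT6 coming close to the knockout range. Its log2 difference was 0.32 ± 0.14 (SE; limma adjusted p = 0.236), and those of its other 2 probe sets were 0.10 and 0.24.

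Mean signals of 2 of these genes were lower in the knockout. Mrpl24, a uL24 protein, gave 828, 906 and 902.5 in the knockout and 978, 1179 and 1055 in wild type, without overlap. The log2 difference was -0.28 ± 0.12 (SE; limma adjusted p = 0.245). Mrpl18, a uL18 protein of the central protuberance, gave 280, 312 and 279 in the knockout and 438, 320 and 361 in wild type, without overlap and with WT5 close above KO904. Its log2 difference was -0.33 ± 0.15 (SE; limma adjusted p = 0.266), or -0.22 without WT4. Mrpl49, Mrpl52 and Mrpl48 were singled out after their values were seen, since 1 probe set of each had an unadjusted p under 0.05. The dimmer probe set of Mrpl49 was nearer to the threshold than any of these but Mrpl57, with 244, 203 and 207 in the knockout and 287, 318 and 297 in wild type. Its groups did not overlap, and the log2 difference was -0.44 ± 0.14 (SE; limma adjusted p = 0.114), while on the brighter one they overlapped. Mrpl49 and Mrpl52, both particular to mitochondria, were lower in the knockout in each of their 2 and 3 probe sets, with log2 differences of -0.44 to -0.15 and of -0.31 to -0.14. Mrpl48, of the central protuberance, gave 945, 435 and 625 in the knockout and 468, 515 and 311 in wild type, with overlapping groups, KO903 as the highest array and a log2 difference of 0.58 ± 0.26 (SE).

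**Figure D3:**
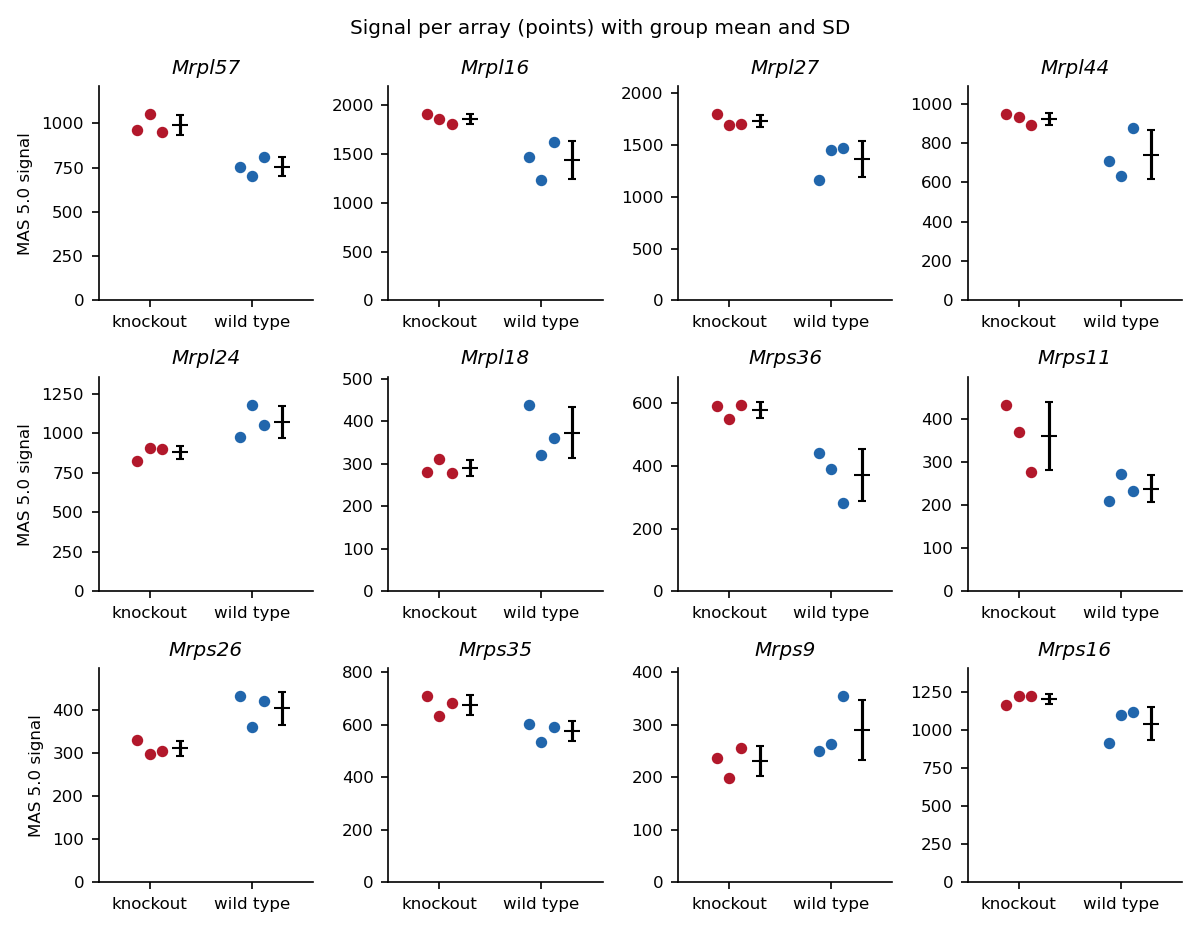
MAS 5.0 signal (linear scale from 0) on each array for the 6 genes with the smallest unadjusted p in each subunit among brightest probe sets, knockout in red and wild type in blue, with the group mean and SD (n = 3) as a black bar. Mrpl57, Mrpl16 and Mrps36 show 3 knockout points above 3 wild-type points, Mrps26 the reverse, and the groups of Mrps9 overlap.

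In the small subunit the knockout signal of Mrps36 was 591, 550 and 594, against 441, 391 and 281 in wild type. The knockout arrays lay close together and the wild-type arrays apart, with WT6 the lowest. The call depended on the setting: the adjusted p of limma was 0.0495 with a minimum mean signal of 200 and 0.045 without WT4, and it reached 0.156 without KO903. Without WT6 the log2 difference was 0.46 in place of 0.64 (limma adjusted p = 0.116).

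Mrps11, the uS11 protein of the platform where the message leaves, gave 434, 371 and 277 in the knockout and 211, 272 and 234 in wild type. KO905 lay just above WT5, and the log2 difference was 0.55 ± 0.18 (SE; limma adjusted p = 0.121). Mrps35, a protein found only in mitochondria, gave 709, 633 and 682 in the knockout and 603, 533 and 592 in wild type. Mrps16, a bS16 protein, gave 1167, 1223 and 1223 in the knockout and 915, 1096 and 1115 in wild type. In both the groups did not overlap, with log2 differences of 0.22 and 0.21 (limma adjusted p = 0.365 and 0.384). That of Mrps16 was 0.12 without WT4.

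Mrps26, another protein particular to mitochondria, was the small subunit gene with the lowest log2 difference, at -0.36 ± 0.13 (SE; limma adjusted p = 0.18). It gave 330, 297 and 305 in the knockout and 432, 360 and 419 in wild type, without overlap. Mrps9, a uS9 protein, gave 236, 199 and 256 in the knockout and 251, 264 and 355 in wild type, and WT4 lay inside the knockout range. Its log2 difference was -0.30 ± 0.17 (SE), or -0.16 without WT6, and those of its dimmer probe sets were -0.10 and 0.05. The brightest small subunit genes besides Mrps16 were Mrps14, of the small subunit head, and Mrps24, the uS3 protein at the message entry. Mrps14 gave 1390, 994 and 1084 in the knockout and 964, 1226 and 920 in wild type, which overlap. Its log2 difference of 0.15 was 0.013 without KO903, 0.25 without KO904, 0.28 without WT5 and 0.07 without WT6. The dimmer probe set of Mrps14 had the other sign, at -0.18.

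Symbols do not always name the subunit. In structures of the mammalian mitochondrial ribosome, the products of Mrps30 and Mrps18a sit in the large subunit as mL65 and mL66. Mrps30 gave 361, 473 and 484 in the knockout and 460, 644 and 516 in wild type, with overlap. The log2 difference was -0.29 ± 0.16 (SE; limma adjusted p = 0.396), or -0.16 without KO903 and -0.16 without WT5. Mrps18a gave 365, 318 and 417 in the knockout and 376, 362 and 343 in wild type, and its difference of 0.02 turned negative with quantile normalisation (-0.016) and with centring on the median (-0.010). Counting both with the large subunit left the subunit medians at 0.09 and 0.03.

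Probe sets of the same gene were compared in sign. Of 24 genes with several tested probe sets, 12 had all of them on the same side of 0 and 12 did not, and the median spread between the highest and the lowest was 0.19 on the log2 scale. The widest was that of Mrpl15, a uL15 protein, whose 5 probe sets ran from -0.39 to 0.65. The brightest of these is 1 of 18 tested members of a type that can match more than 1 transcript. The second in brightness gave 929, 1047 and 1104 in the knockout and 1348, 1099 and 1642 in wild type. The fourth in brightness gave 329, 731 and 987 in the knockout and 470, 475 and 265 in wild type. These point in opposite directions, at log2 -0.39 ± 0.15 and 0.65 ± 0.34 (SE), and only the first has an unadjusted p under 0.05. The brightest gave 1098, 1190 and 1114 in the knockout and 1315, 1256 and 1302 in wild type, and its log2 difference was -0.19 ± 0.11 (SE; limma adjusted p = 0.394). Mrps24 likewise had a log2 difference of 0.03 on its brighter probe set, which was -0.00039 with centring on the median, and of -0.33 on the dimmer one, both of a type that can match more than 1 transcript.

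**Figure D4:**
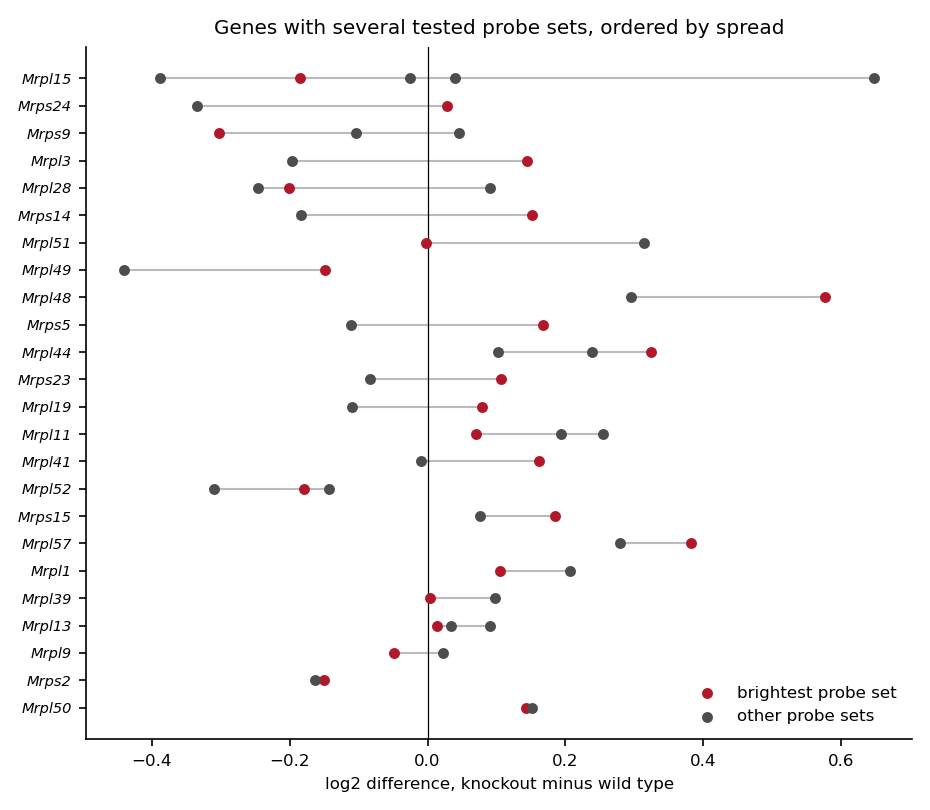
Log2 difference (knockout minus wild type, horizontal axis) of each tested probe set of the 24 genes that have several, ordered by spread with the widest at the top. The brightest probe set of a gene is red and the others are grey. Mrpl15 spans -0.39 to 0.65, while the probe sets of Mrpl50 lie within 0.01 of each other.

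The arrays of a group differed among themselves. As the median deviation of the 47 large subunit genes from their 6-array mean, KO903, KO904 and KO905 gave 0.11, 0.03 and 0.04 on the log2 scale, against -0.07, -0.01 and 0.01 in WT4, WT5 and WT6. The knockout medians lay above the wild-type ones, KO904 being the nearest to WT6. For the 27 small subunit genes the knockout gave 0.05, -0.03 and 0.02 and wild type -0.06, 0.01 and -0.06, which overlap. Over all 6604 tested genes the values were 0.03, 0.04 and -0.0046 in the knockout and -0.02, -0.0043 and -0.0044 in wild type. KO903 was the highest array for 31 of the 107 member probe sets (29.0%), against 19.2% of all tested probe sets, and for 25 of the 72 of the large subunit. In the small subunit KO903 was the highest for 6 of 35 (17.1%) and KO905 for 9. There KO904 was the lowest for 11 of 35 (31.4%), against 14.6% of all tested probe sets. KO903 also had the lowest ratio of 3' to 5' Gapdh signal, 0.82 against 0.86 to 0.99 on the other arrays, and the part of RNA quality in these values was not tested.

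**Figure D5:**
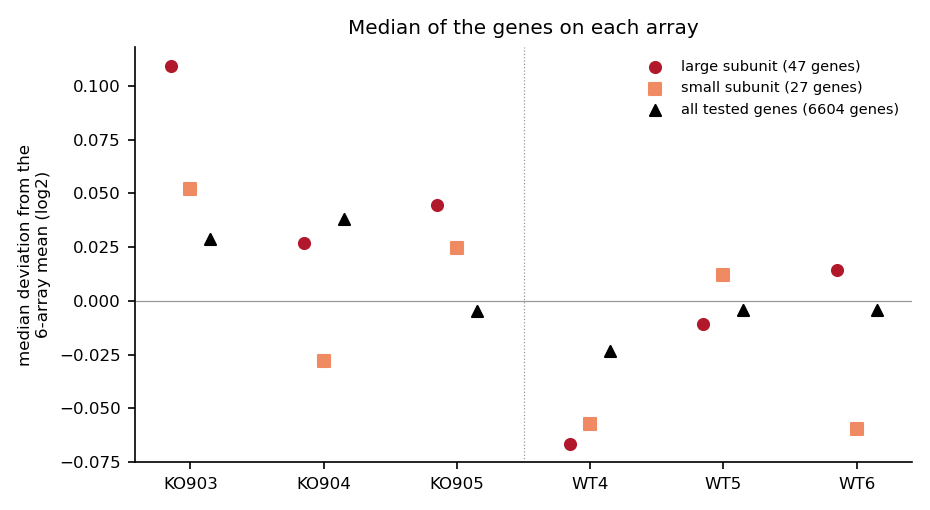
Median deviation from the 6-array mean (log2, vertical axis) of the large subunit genes, the small subunit genes and all tested genes on each array, knockout arrays to the left of the dotted line. KO903 is highest for both subunits, at 0.11 and 0.05, and the knockout and wild-type values overlap for the small subunit.

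The promoters of these genes are known for sites of the nuclear respiratory factors, which tie mitochondrial and nuclear gene expression together. RefSeq windows of 250 bases before to 50 after the gene start (GRCm38.p6) were matched for 65 of the 74 genes and searched on both strands. The NRF-1 core (GCGC, 2 bases of any kind, GCGC) was found in 13 of 71 member windows (18.3%), against 6.23% of all 32851 windows. The core of ETS factors such as NRF-2 (CCGGAAG) was found in 24 member windows (33.8%), against 8.86% of all. The search also covered the E-box (CACGTG), found in 7 member windows (9.86%), against 7.15% of all. The YY1 motif (AAGATGGCG) was found in 7 member windows (9.86%), against 1.40% of all. The windows compared were neither limited to tested genes nor matched in base content, and these shares were not tested. Genes with the ETS core had a median log2 difference of 0.11 (24 genes) and those without it 0.06 (41 genes), and for the NRF-1 core the medians were -0.02 (13 genes) and 0.10 (52 genes). For the E-box the medians were 0.06 (5 genes) and 0.07 (60 genes), and for YY1 0.03 (7 genes) and 0.07 (58 genes). These medians were not tested. The windows below are those of the genes with the smallest p in each subunit, Mrpl57 and Mrps36, and of Mrpl17 and Mrps26. Mrpl57, Mrpl17, Mrps26 and Mrps21 are the 4 genes with both the NRF-1 and the ETS core among those with a single window. Capitals mark matches to the NRF-1 or the ETS core. The Mrpl57 window is chr14:57825989-57826288, plus strand, that of Mrpl17 is chr7:105811038-105811337, minus strand, that of Mrps36 is chr13:100744610-100744909, minus strand, and that of Mrps26 is chr2:130563507-130563806, plus strand.
Mrpl57: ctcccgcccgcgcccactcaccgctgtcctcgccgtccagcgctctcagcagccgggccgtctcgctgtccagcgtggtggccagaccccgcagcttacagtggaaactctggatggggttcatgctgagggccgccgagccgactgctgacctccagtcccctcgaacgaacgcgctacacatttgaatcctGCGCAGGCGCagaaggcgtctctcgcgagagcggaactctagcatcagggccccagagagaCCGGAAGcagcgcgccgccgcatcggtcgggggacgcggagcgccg
Mrpl17: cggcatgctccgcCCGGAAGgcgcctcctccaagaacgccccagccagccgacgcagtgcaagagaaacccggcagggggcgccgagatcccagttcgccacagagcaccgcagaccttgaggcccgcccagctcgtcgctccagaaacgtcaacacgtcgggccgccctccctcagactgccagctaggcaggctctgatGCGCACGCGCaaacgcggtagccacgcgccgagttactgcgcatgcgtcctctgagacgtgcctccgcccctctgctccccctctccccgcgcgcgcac
Mrps36: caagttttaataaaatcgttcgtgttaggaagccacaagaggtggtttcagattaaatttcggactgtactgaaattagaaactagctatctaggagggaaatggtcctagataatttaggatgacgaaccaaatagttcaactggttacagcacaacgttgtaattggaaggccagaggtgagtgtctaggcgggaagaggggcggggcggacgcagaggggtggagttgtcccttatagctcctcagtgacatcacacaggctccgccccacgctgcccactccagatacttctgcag
Mrps26: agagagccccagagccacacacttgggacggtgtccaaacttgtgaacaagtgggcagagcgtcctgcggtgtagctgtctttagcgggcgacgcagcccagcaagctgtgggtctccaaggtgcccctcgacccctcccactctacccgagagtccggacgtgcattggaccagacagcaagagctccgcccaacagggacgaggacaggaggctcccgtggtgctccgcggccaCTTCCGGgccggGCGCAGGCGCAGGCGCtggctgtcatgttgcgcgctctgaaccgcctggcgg
Mrpl57 and Mrps26, whose windows hold both cores, had log2 differences of opposite sign (0.38 and -0.36). Mrpl17, with both cores as well, had a log2 difference of -0.01. The window of Mrps36 held neither, and that of Mrps26 holds 2 overlapping NRF-1 matches.

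No gene of the other lists of mitochondrial translation passed the test. The shares over all tested genes were 3.94% called and 18% at an unadjusted p under 0.05. Of 4 tested ribosomal proteins under other symbols limma called 0 (0 at an unadjusted p under 0.05), with Dap3, a small subunit GTP-binding protein, at a log2 difference of 0.34 (adjusted p = 0.311). Of 8 translation factors 0 were called, and at an unadjusted p under 0.05 stood 1 higher and 1 lower. The higher one was Oxa1l, an inner membrane insertase for newly made proteins. It gave 257, 270 and 321 in the knockout and 259, 193 and 163 in wild type, with KO903 just below WT4. The log2 difference was 0.45 ± 0.18 (SE; limma adjusted p = 0.211). Its dimmer probe set went the other way, with means of 117 in the knockout and 131 in wild type and a log2 difference of -0.14. The lower translation factor was Tufm, the elongation factor that brings the tRNAs. It gave 302, 86.3 and 254 in the knockout and 510, 387 and 419 in wild type. Its groups did not overlap, KO904 was far below the other arrays, and the log2 difference was -1.13 ± 0.34 (SE; limma adjusted p = 0.0955), or -0.62 without KO904. Of 11 tRNA synthetase and amidotransferase genes 0 were called (0 at an unadjusted p under 0.05), and the smallest p belonged to Gatc at a log2 difference of 0.23. Of 13 assembly factors 0 were called (0 at an unadjusted p under 0.05), with Noa1 at 0.25 having the smallest p. Of 18 genes of mitochondrial transcription and RNA handling 0 were called. An unadjusted p under 0.05 was found for 3, all lower in the knockout, against 10.1% higher and 7.84% lower over all tested genes. Among these 3 was Fastkd1, an RNA-binding regulator of mitochondrial transcripts, at a log2 difference of -0.36 (limma adjusted p = 0.173). Tfb2m gave 409, 573 and 580 in the knockout and 672, 599 and 1142 in wild type, with WT6 far above the other arrays. Its log2 difference was -0.57 (limma adjusted p = 0.208). Grsf1 stood at -0.26 on its brightest probe set (limma adjusted p = 0.257) and at 0.04 and -0.14 on its others.

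Of 70 oxidative phosphorylation subunits, which include the proteins assembled with those made on this ribosome, 1 was called lower and 0 higher. The called share of all tested genes was 3.94%. These 70 subunits had a median log2 difference of 0.07. At an unadjusted p under 0.05 stood 6 higher and 3 lower, against 10.1% and 7.84% of all tested genes. The groups did not overlap for 13 higher and 5 lower, against 14% and 10.1% of all tested genes. The 1 called was Ndufa6, a complex I subunit, with 2266, 2378 and 2334 in the knockout and 2963, 3302 and 3024 in wild type (log2 -0.41 ± 0.10 SE; limma adjusted p = 0.043). That call ended with any 1 of the 6 samples left out (adjusted p 0.0797 to 0.138). Of 37 cytosolic ribosomal proteins limma called 0, against 3.94% of all tested genes. An unadjusted p under 0.05 was found for 2 of these 37, against 18% of all tested genes. The median log2 difference of the 37 was 0.02.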

How the data were processed

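Total liver RNA of 3 Atp7b knockout and 3 wild-type samples was measured on Affymetrix arrays. Per the labels, the deposited values are MAS 5.0 intensity signals on a linear scale, scaled by the authors to a target average of 350 per array; the sources used here do not say how the 11811 probe sets were chosen. Groups came from the sample titles, whose numbers pair no samples. Control probe sets (33) and those with a mean signal under 100 (1158) were left out, and 10620 were tested.

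Log2(signal + 16) was fitted with limma 3.58.1 in R 4.3.3 (lmFit, eBayes with trend; two-sided), and p-values were adjusted by Benjamini-Hochberg across the 10620 at a threshold of 0.05; an exact permutation test of 3 against 3 cannot go below 0.1. The code was tested on simulated data. Gene symbols came from the platform annotation; all 109 members were found in RefSeq by Entrez identifier and 0 symbols changed, and 2 probe sets with a member symbol among several were left out. The brightest tested probe set stood for a gene. The number of arrays limits the precision.

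Members and lists were chosen with earlier results of these data known. Named were, per subunit, the 6 genes with the smallest p and the 3 brightest, genes whose probe sets disagreed in sign with an unadjusted p under 0.05, Mrps30 and Mrps18a, called genes or the one with the smallest p of the smaller companion lists, and Atp7b, Mt1 and Mt2 (Mt1 rose 2.20-fold; limma adjusted p = 0.000747). Oxa1l, Ndufa6, Rps29, Tat, Tfb2m and Grsf1 were named after their values were seen. Alternatives were other scalings, pseudocounts of 1 and 64, filters, eBayes settings, array weights, each sample left out, a threshold of 0.10 and other ways to sum up a gene or subunit. Figures were drawn with matplotlib 3.10.9.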

Additional observations from a re-analysis of the deposited data

How the results depend on the processing

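Member probe sets called lower stayed at 0 under every alternative run. Those called higher were 0, except for 1 (Mrps36) with a minimum mean signal of 200 and 0 to 1 with a sample left out (1 without WT4), and 2 (Mrps36 and Mrpl57) at an adjusted p threshold of 0.10, which 7.4% of all tested probe sets passed. The large subunit median was 0.06 to 0.11 with a sample left out. The small subunit median was 0.018 to 0.072, the highest values being 0.068 without KO904 and 0.072 without WT5; without Mrps36, an alternative chosen after seeing the data, it was 0.01. The companion lists held 1 called gene, 0 with any sample left out, 0 without the trend in eBayes, and 2 (Ndufa6 and Rps29) after quantile normalisation; these refits were added after seeing the data.

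Of the named members, Mrpl13 was -0.014 with centring and -0.071 to 0.18 with a sample left out. Mrps18a was -0.016 after quantile normalisation, -0.010 with centring and -0.076 to 0.11 with a sample left out, and Mrps24 was -0.00039 with centring and -0.041 to 0.10 with a sample left out. The causes were not tested. Read from its brightest probe set, each of the other 15 members named by the rule above kept its sign under every alternative run for single genes. Members named outside that rule, such as Mrpl17, Mrpl48, Mrpl49 and Mrpl52, were not checked in this way. Averaging probe sets was tried for the subunit medians only. Its effect on single genes was not examined, and the probe sets of Mrpl15, Mrps9 and Mrps14 differed in sign. No paired analysis was possible because knockout and wild-type samples share no replicate number. With 3 arrays per group, the members' intervals reached a median of 0.31 either way on the log2 scale.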
